A study of Mus musculus with 144 samples.

Results

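The 6 genes described here encode receptors through which B cells read antibody and complement: Fcmr (the Fc receptor for IgM), Fcer2a (CD23, the low-affinity receptor for IgE), Fcgr2b (the inhibitory receptor for IgG), Cr2 (complement receptor CD21, with CD35 made from the same gene in mice), and the Fc receptor-like genes Fcrl1 and Fcrla. They were chosen by name, as were the gene lists used below, with earlier results of these data known. Counts of calls among them are therefore a description and not independent support. Each receptor was read from the 1 probe set annotated to it alone. The receptors are thus 6 of the 22180 genes with such a probe set, and their levels are described over all 18 groups of mice. Blood came from male C57BL/J6 mice, 7 weeks old when obtained, 1, 6 or 12 months after a single pharyngeal aspiration, in which a suspension placed at the base of the tongue is breathed into the lungs. The materials were multi-walled carbon nanotubes (MWCNT), given at 1, 10, 40 or 80 µg, and crocidolite asbestos, given at 120 µg as the positive control. Mice that received dispersion medium alone (DM, the vehicle in which both materials were suspended) were the negative control. Each combination of dose and month held 6 to 9 mice, each housed singly, and the number of mice limits the precision.

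B cells carry a receptor complex that recognises antigen, and the receptors studied here set how strongly that complex signals. Cr2 binds complement fragments attached to antigen and lowers the amount of antigen needed for activation, whereas Fcgr2b binds IgG already made against the antigen and dampens the signal through phosphatases. Fcer2a and Fcmr bind IgE and IgM, Fcrl1 is a surface protein of B cells that enhances signalling, and Fcrla is an intracellular relative. Of the 6, Fcgr2b is also well known on monocytes, macrophages and neutrophils.

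In the RefSeq annotation (GRCm38.p6), Cr2 lies on chromosome 1 at 195136811-195176880, Fcmr on chromosome 1 at 130865777-130880790, Fcrla on chromosome 1 at 170917594-170932216 and Fcgr2b on chromosome 1 at 170960558-170976071. Fcrl1 lies on chromosome 3 at 87376353-87403967 and Fcer2a on chromosome 8 at 3680280-3694174. The 250 bases before the RefSeq start sites were searched on both strands for letters known from B cell factors. The windows of Cr2 (chr1:195176720-195176969, minus strand), Fcrl1 (chr3:87376137-87376386, plus strand) and Fcmr (chr1:130865527-130865776, plus strand) are shown for genes that fell at 12 months, and that of Fcgr2b (chr1:170976072-170976321, minus strand) for the gene whose change was nearest 0. Each is written 5′ to 3′ with the last base next to the start, and capitals mark matches. They are GTGGGAA (the RBPJ motif) and the E-box CAGGTG (read here on the opposite strand) in Cr2, and AGGAAGT (the PU.1 motif, on the opposite strand) in Fcrl1. Some listed start sites lie inside the gene spans given above. The windows of Cr2 and Fcrl1 overlap their genes in part, and the E-box and the PU.1 match lie in that overlap.
Cr2: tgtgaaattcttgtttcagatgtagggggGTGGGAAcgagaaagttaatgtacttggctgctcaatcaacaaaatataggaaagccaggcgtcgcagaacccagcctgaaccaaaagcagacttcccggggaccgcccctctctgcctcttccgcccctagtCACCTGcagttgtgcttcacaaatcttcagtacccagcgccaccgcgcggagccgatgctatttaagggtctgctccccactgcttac
Fcrl1: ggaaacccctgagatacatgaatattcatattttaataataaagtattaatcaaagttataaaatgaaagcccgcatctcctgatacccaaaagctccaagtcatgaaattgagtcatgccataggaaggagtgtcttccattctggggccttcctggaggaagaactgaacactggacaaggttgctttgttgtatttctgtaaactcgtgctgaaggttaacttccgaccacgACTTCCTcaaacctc
Fcmr: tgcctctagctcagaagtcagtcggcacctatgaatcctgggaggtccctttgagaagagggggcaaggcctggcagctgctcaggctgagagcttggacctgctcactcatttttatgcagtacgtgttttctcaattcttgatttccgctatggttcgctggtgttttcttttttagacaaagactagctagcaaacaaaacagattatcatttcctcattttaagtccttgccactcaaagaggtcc
Fcgr2b: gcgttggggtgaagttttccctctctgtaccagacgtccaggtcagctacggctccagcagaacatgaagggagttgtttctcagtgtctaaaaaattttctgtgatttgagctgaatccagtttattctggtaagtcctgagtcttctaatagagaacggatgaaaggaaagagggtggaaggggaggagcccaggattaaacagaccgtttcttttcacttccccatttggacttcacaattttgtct

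Fcmr and Fcgr2b held none of the 7 motifs searched. The remaining matches were an E-box in Fcrla and, at the second of 3 listed start sites of Fcer2a, 1 STAT6 motif (TTC and GAA with 4 bases between) and 2 E-boxes. Both of these windows lie inside the spans of their genes. No match overlapped another. Of the 8 windows of the 6 genes, 3 held an E-box, against 17.2% of all 32851 windows in the table. RBPJ, PU.1 and STAT6 motifs each stood in 1 window, against 5.42%, 7.69% and 5.85% of all windows. None of the 8 held the EBF1 motif CCCNNGGG, the octamer ATGCAAAT or the NF-kappaB motif (GGGAC followed by TTTCC), which 11.8%, 1.60% and 0.140% of all windows held. No motif searched stood in the windows of all the genes that fell, and a match describes letters, not a bound site.

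All 6 receptors were well measured. Values are log2 expression levels after robust multi-array averaging (RMA). The gene means over all mice were 7.64 for Fcmr, 7.07 for Fcer2a, 6.26 for Fcgr2b, 5.74 for Fcrla, 5.64 for Fcrl1 and 4.94 for Cr2. These stood at the 89.69th percentile (Cr2) to the 98.03rd percentile (Fcmr) of all single-gene probe sets. No mouse had any of the 6 under 1.51, the 90th percentile of the olfactory receptor probe sets, which serve here as a measure of dim signal. Markers of B cells were likewise clear, with Ighm (the IgM heavy chain) at 9.79, Cd79a (a chain of the antigen receptor) at 8.69 and Ms4a1 (CD20) at 7.08. Whole blood mixes many cell types, so fewer B cells and less receptor RNA per B cell cannot be told apart.

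Array quality was not even over the groups. In all, 13 arrays had a median correlation with the others under 0.85, and 9 of these came from exposed mice at 12 months, against 0 from DM mice at 12 months. The spread of an array is the interquartile range of its deviations from the probe set medians. At 12 months it averaged 0.643 to 0.668 in the exposed groups, with SDs from 0.0695 (80 µg) to 0.146 (crocidolite). In DM mice of that month it averaged 0.573 ± 0.0306 (SD). Within groups, each receptor was lower in mice whose arrays had more spread, with correlations of -0.32 (Fcmr) to -0.45 (Fcrl1) over all mice, which share these arrays. The calls below are therefore also given without the 13 arrays and with the spread as a covariate.

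At 12 months, 4 of the 6 receptors fell along the MWCNT doses. The trend is linear in the log2 of the dose plus 1 over DM, 1, 10, 40 and 80 µg and is given as the change from DM to 80 µg. A gene was called at a Benjamini-Hochberg adjusted p under 0.10 over all 23521 single-gene probe sets. Fcrl1 changed by -0.84 ± 0.19 (SE, adjusted p = 0.0162), Fcmr by -0.84 ± 0.18 (adjusted p = 0.0127), Fcrla by -0.83 ± 0.22 (adjusted p = 0.0293) and Cr2 by -0.96 ± 0.31 (adjusted p = 0.0690). Fcer2a (-0.56 ± 0.21, adjusted p = 0.124) and Fcgr2b (-0.24 ± 0.20, adjusted p = 0.517) were not called. With each of the 40 mice left out in turn, 3 to 5 receptors were called. The Cr2 call was lost in 11 of these fits (without DM mouse 1, 3, 6 or 7, 1 µg mouse 5 or 8, 40 µg mouse 2, 3 or 4, or 80 µg mouse 2 or 7) and in 11 of 17 other settings, while the calls of Fcmr, Fcrl1 and Fcrla were lost with no single mouse. Of all probe sets, 5.07% were called lower in this trend and 1.11% higher. The median change was -0.84 over the 6 receptors, against -0.02 over all probe sets.

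The medians of Fcmr, the IgM receptor, were lower at each higher dose. They were 8.13 in DM mice and 7.72, 7.41, 7.22 and 7.18 at 1, 10, 40 and 80 µg. Its levels were 6.65, 7.18 and 7.91 in 8 mice at 80 µg, against 7.88, 8.13 and 8.73 in 8 DM mice (lowest, median and highest). All 8 mice at 80 µg lay under the DM median and 7 lay under the lowest DM mouse, although the groups still overlapped. The difference between 80 µg and DM was -0.92 ± 0.22 (adjusted p = 0.0378). The call was lost without DM mouse 3 or 7 or without 80 µg mouse 7, with estimates between -1.01 and -0.83 over the 16 omissions.

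Fcrl1 behaved alike at the highest dose. It measured 4.56, 4.93 and 5.93 (lowest, median and highest) in 8 mice at 80 µg, against 5.66, 6.10 and 6.38 in 8 DM mice. Again 7 of the 8 mice at 80 µg lay under every DM mouse. At 80 µg it fell by 1.00 ± 0.23 (adjusted p = 0.0358), the smallest adjusted p of the 6 receptors. The medians between were 5.81 at 1 µg, 5.29 at 10 µg and 5.63 at 40 µg, so the order of 10 and 40 µg ran against the dose.

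Fcrla was the third receptor called at 80 µg. Its levels were 4.84, 5.35 and 6.16 in 8 mice at 80 µg, against 5.76, 6.50 and 6.89 in 8 DM mice (lowest, median and highest). All 8 exposed mice lay under the DM median, 6 of them under the lowest DM mouse. The difference was -0.95 ± 0.27 (adjusted p = 0.0867), and leaving out a single mouse ended the call in 11 of 16 cases (DM mouse 1, 2, 3, 5, 6 or 7, or 80 µg mouse 1, 2, 5, 7 or 8), with estimates between -1.06 and -0.87. The median at 40 µg, 5.26, lay below that at 80 µg.

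Thus 3 of the 6 receptors were called lower at 80 µg against DM, where 0.986% of all probe sets were called lower and 0.234% higher. Cr2 had the largest estimate but the widest spread. It measured 1.97, 3.95 and 5.06 at 80 µg, against 3.59, 5.16 and 6.15 in DM mice (lowest, median and highest of 8 each). All 8 mice at 80 µg lay under the DM median and 3 under the lowest DM mouse. The difference, -1.05 ± 0.38, was not called (adjusted p = 0.177). Fcer2a, the IgE receptor, measured 6.05, 6.50 and 7.15 at 80 µg, against 6.83, 7.40 and 7.96 in DM mice, with all 8 exposed mice under the DM median. Its difference was -0.75 ± 0.26 (adjusted p = 0.152).

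Fcgr2b, the inhibitory IgG receptor, had the estimate nearest 0. It measured 5.59, 6.27 and 7.14 at 80 µg, against 5.95, 6.52 and 6.97 in DM mice, and 1 exposed mouse lay above the highest DM mouse. The difference was -0.24 ± 0.24 (adjusted p = 0.699), with an estimate closer to 0 than at 40 µg (-0.52 ± 0.25, adjusted p = 0.436) or 10 µg (-0.46 ± 0.24, adjusted p = 0.346). Whether Fcgr2b differed from the other receptors in this respect was not tested.

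**Figure D1:**
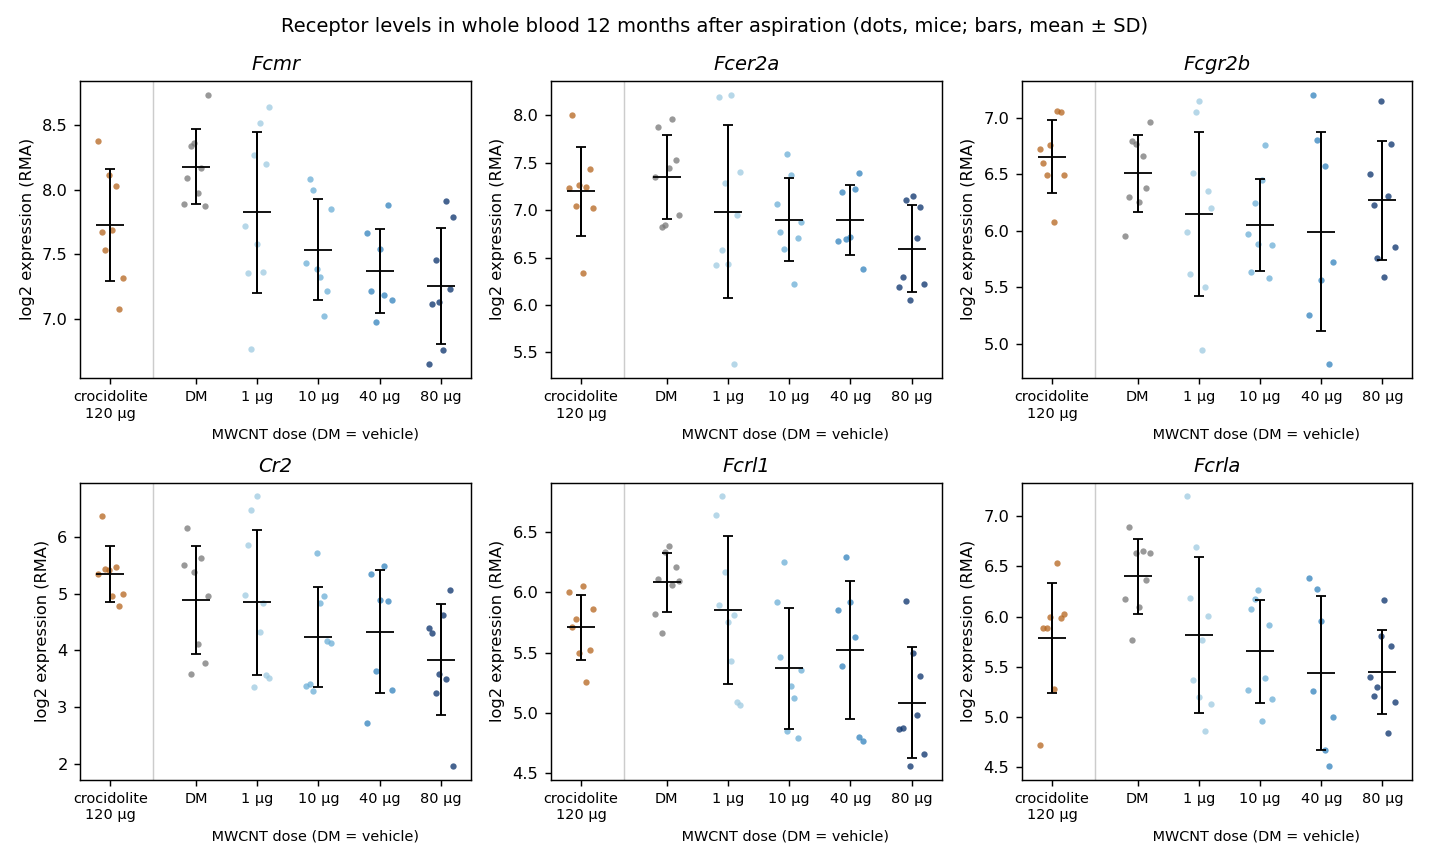
Log2 expression (RMA) of the 6 receptors in whole blood at 12 months, 1 panel per gene, with 120 µg crocidolite on the left and then DM and the MWCNT doses from low to high. Dots are mice and bars the mean ± SD of 7 to 9 mice. The mean of Fcmr is 7.26 at 80 µg and 8.18 in DM mice, whereas that of Fcgr2b at 80 µg (6.27) lies within the range of DM mice.

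The lower doses did not pass the test on their own. At 10 and 40 µg all 6 receptors were lower than in DM mice in sign, as were 59.3% and 53.5% of all probe sets. None was called, where 0.132% and 0.0298% of all probe sets were called lower and 0.0468% and 0.0128% higher. At 40 µg, Fcmr differed by -0.80 ± 0.23 and Fcrla by -0.97 ± 0.28 (adjusted p = 0.155 for both), with all 7 mice under the DM median for each. At 10 µg, Fcrl1 differed by -0.71 ± 0.23 (adjusted p = 0.153). At 1 µg the 6 estimates ran from -0.58 (Fcrla) to -0.04 (Cr2), and none was called, where 0% of all probe sets were. A slope fitted to the 4 MWCNT doses without DM mice called none of the receptors and 0 of all probe sets. Its estimates were -0.85 ± 0.34 for Cr2, -0.62 ± 0.21 for Fcrl1, -0.56 ± 0.20 for Fcmr and 0.04 ± 0.22 for Fcgr2b, with 3 receptors lower at an unadjusted p under 0.05, as were 5.99% of all probe sets.

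The calls were not the same in the 2 fits that took array quality into account. Without the 13 arrays of low correlation, Fcmr, Fcrl1 and Fcrla were called both in the trend and at 80 µg, and Cr2 in neither. With the array spread as a covariate 2 were called in the trend (Fcmr and Fcrl1) and 0 at 80 µg, where the estimates were smaller than in the fit without it. They were -0.79 ± 0.21 for Fcrl1 (adjusted p = 0.188), -0.78 ± 0.21 for Fcmr (adjusted p = 0.198), -0.72 ± 0.25 for Fcrla (adjusted p = 0.370) and -0.76 ± 0.36 for Cr2 (adjusted p = 0.546). The share of all probe sets called in these fits was not counted, so the counts are not read as a result about the receptors. The part of array quality in the falls was not tested beyond these fits.

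**Figure D2:**
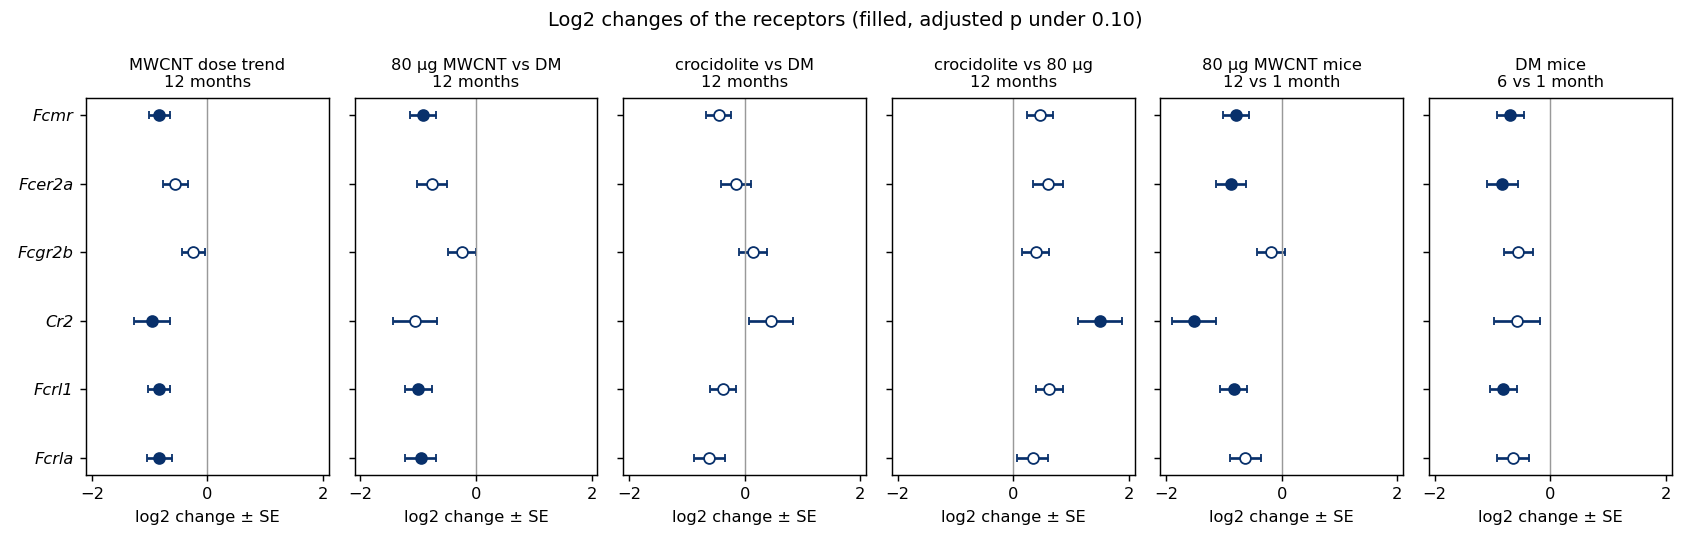
Log2 change ± SE of each receptor (rows) in 6 comparisons (panels), with filled points for an adjusted p under 0.10. The filled points lie left of 0 in the MWCNT panels and in DM mice at 6 months against 1 month, and the 1 filled point right of 0 is Cr2 with crocidolite against 80 µg MWCNT (1.50).

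With crocidolite at 12 months, none of the 6 receptors was called against DM, where 2.02% of all probe sets were called lower and 0.455% higher. Fcrla differed by -0.61 ± 0.27 (adjusted p = 0.250), Fcmr by -0.45 ± 0.22 (adjusted p = 0.313) and Fcrl1 by -0.37 ± 0.23 (adjusted p = 0.464), all with 7 or 8 of 8 crocidolite mice under the DM median. Cr2 (0.46 ± 0.38) and Fcgr2b (0.15 ± 0.24) had estimates above 0, with adjusted p of 0.627 and 0.839.

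Set directly against each other, crocidolite and 80 µg MWCNT gave 1 call among the 6 receptors, that of Cr2. Cr2 measured 4.77, 5.38 and 6.36 in 8 crocidolite mice, against 1.97, 3.95 and 5.06 in 8 mice at 80 µg (lowest, median and highest). All 8 crocidolite mice lay above the median of the 80 µg group and 5 above its highest mouse. The difference was 1.50 ± 0.38 (adjusted p = 0.0880). Of all probe sets, 0.111% were called higher here. The call is a narrow one, since leaving out a single mouse ended it in 10 of 16 cases (80 µg mouse 2, 4, 7 or 8, or crocidolite mouse 2, 3, 4, 5, 6 or 7), with estimates between 1.24 and 1.68. The other 5 estimates were also above 0 and not called, from 0.34 ± 0.27 for Fcrla (adjusted p = 0.574) to 0.63 ± 0.23 for Fcrl1 (adjusted p = 0.202). Crocidolite was given at 120 µg and MWCNT at 80 µg, so material and dose cannot be told apart.

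The lowest and highest of the 18 group means were not those of the same groups for every receptor. Cr2, Fcer2a, Fcmr and Fcrl1 all had their lowest group mean in mice given 80 µg MWCNT at 12 months, at 3.84 ± 0.98, 6.59 ± 0.46, 7.26 ± 0.45 and 5.08 ± 0.46 (SD, n = 8). Fcrla was lowest in mice given 40 µg at 1 month (5.15 ± 0.94, n = 6) and Fcgr2b in DM mice at 6 months (5.88 ± 0.54, n = 8). The Fcrla mean there took in mouse 6 (3.35, nearest 5.05). By median that group (5.40) lay above 40 µg mice at 12 months (5.26). The highest means were those of DM mice at 1 month for Cr2 (5.61 ± 0.50, n = 7) and Fcer2a (7.61 ± 0.26), and of DM mice at 12 months for Fcmr (8.18 ± 0.29, n = 8) and Fcrla (6.40 ± 0.37). Fcrl1 and Fcgr2b were highest in mice given 10 µg at 1 month, at 6.09 ± 0.20 and 6.72 ± 0.29 (n = 6). From lowest to highest group mean, Cr2 spanned 1.77 and Fcgr2b 0.85 on the log2 scale. Of the 17 gaps between neighbouring group means of each gene, none exceeded the SD of the neighbouring groups. With 18 means sorted over such spans, gaps are small in any case, so this count cannot show whether the groups were ordered.

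No receptor was called in any of the 10 comparisons of an exposed group with DM mice at 1 and 6 months. In 9 of the 10, 0% of all probe sets were called, and at 1 µg and 1 month 0.0085% were called lower. The lowest adjusted p among the receptors was 0.300 at 1 month and 1.00 at 6 months. The group nearest to a difference was 40 µg at 1 month, with a median change of -0.72 and 5 receptors lower at an unadjusted p under 0.05, as were 7.78% of all probe sets. There Fcrla measured 3.35, 5.40 and 5.90 in 6 mice given 40 µg, against 5.66, 6.10 and 6.50 in 7 DM mice, a difference of -0.89 ± 0.30 (adjusted p = 0.300). Mouse 6 of that 40 µg group was its lowest for every receptor but Cr2. At 80 µg and 1 month the median change over the receptors was -0.02. The effects of the MWCNT trend, of 80 µg and of crocidolite were also tested for a difference between months with an F test. No receptor passed (adjusted p between 0.525 and 0.972), where 0% of all probe sets passed for the trend and for 80 µg and 0.0553% for crocidolite. Of these receptor tests, 7 had an unadjusted p under 0.05, the lowest that of Fcrl1 at 80 µg (0.000732). The share of all probe sets under 0.05 in these F tests was not counted, so the 7 cannot be set against it. The 12-month changes are thus not shown to differ from those at 1 and 6 months.

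In mice given 80 µg MWCNT, 4 of the 6 receptors were lower at 12 months than at 1 month, a comparison in which 13.3% of all probe sets were called lower. Cr2 measured 1.97, 3.95 and 5.06 at 12 months, against 4.50, 5.52 and 6.30 at 1 month (lowest, median and highest of 8 mice each), a change of -1.52 ± 0.38 (adjusted p = 0.00375). Fcer2a changed by -0.88 ± 0.26 (adjusted p = 0.0151), Fcrl1 by -0.83 ± 0.23 (adjusted p = 0.00972) and Fcmr by -0.79 ± 0.22 (adjusted p = 0.00997). For each of these 4, all 8 mice at 12 months lay under the median at 1 month. Fcrla (-0.63 ± 0.27, adjusted p = 0.105) and Fcgr2b (-0.18 ± 0.24, adjusted p = 0.657) were not called. In crocidolite mice none of the 6 was called between the same months, where 0.00425% of all probe sets were called lower. Cr2 there changed by -0.12 ± 0.39 (adjusted p = 0.961).

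DM mice also moved between months. At 6 months against 1 month, Fcer2a changed by -0.83 ± 0.27 (adjusted p = 0.0808), Fcrl1 by -0.81 ± 0.24 (adjusted p = 0.0583) and Fcmr by -0.69 ± 0.23 (adjusted p = 0.0878). These were 3 of the 6 receptors, in a comparison where 3.46% of all probe sets were called lower and 0.476% higher. At 12 months against 6 months none was called, where 0.0680% of all probe sets were called higher. The estimates there were 1.00 ± 0.27 for Fcrla (adjusted p = 0.128), 0.92 ± 0.23 for Fcrl1 (adjusted p = 0.116) and 0.87 ± 0.22 for Fcmr (adjusted p = 0.124), with all 8 mice at 12 months above the 6-month median for each. At 12 months against 1 month no receptor was called in DM mice, where 1.13% of all probe sets were called lower and 0.383% higher.

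The means at 6 and 12 months are given side by side. Fcmr averaged 7.29 ± 0.60 in mice given 80 µg and 7.31 ± 0.60 in DM mice at 6 months, and 7.26 ± 0.45 in mice given 80 µg and 8.18 ± 0.29 in DM mice at 12 months (SD, n = 8 each). Fcrl1 averaged 5.38 ± 0.44 in mice given 80 µg and 5.16 ± 0.62 in DM mice at 6 months, and 5.08 ± 0.46 in mice given 80 µg and 6.08 ± 0.24 in DM mice at 12 months. The exposed means of Fcmr at 6 and 12 months thus lay close together while the DM mean was higher at 12 months. For Cr2 the mean at 80 µg was 4.82 ± 0.59 at 6 months and 3.84 ± 0.98 at 12 months, against 5.03 ± 0.43 and 4.89 ± 0.95 in DM mice at those months. Fcgr2b averaged 6.24 ± 0.68 in mice given 80 µg and 5.88 ± 0.54 in DM mice at 6 months, and 6.27 ± 0.53 in mice given 80 µg and 6.51 ± 0.34 in DM mice at 12 months. For every receptor the 80 µg and DM mice overlapped at 12 months. Each month's mice were different animals, and age rose with the month.

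**Figure D3:**
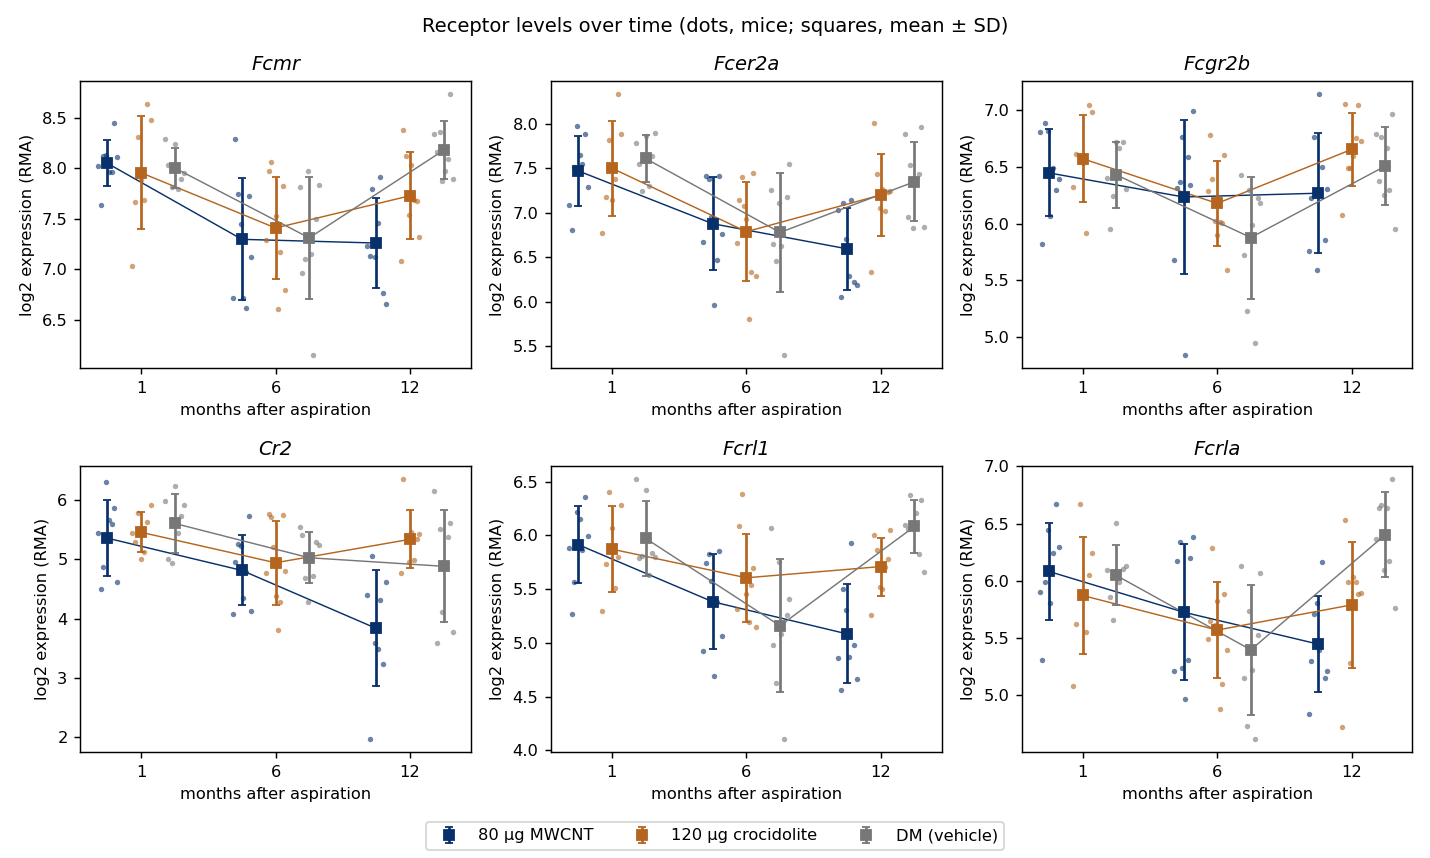
Log2 expression (RMA) of each receptor at 1, 6 and 12 months in mice given 80 µg MWCNT, 120 µg crocidolite or DM. Dots are mice and squares with bars the mean ± SD of 7 to 9 mice, joined by lines between different animals. The 80 µg means of Fcmr are 7.29 at 6 months and 7.26 at 12 months, while the DM means at those months are 7.31 and 8.18.

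Within groups the receptors rose and fell together from mouse to mouse. After the group means were removed, the 15 pairs of receptors correlated at 0.51 (Cr2 with Fcgr2b) to 0.86 (Fcer2a with Fcmr) over all mice of the study. With the mean of the B cell markers the correlation was 0.91 for Fcmr, 0.90 for Fcer2a, 0.84 for Fcrla, 0.81 for Fcrl1, 0.70 for Fcgr2b and 0.66 for Cr2. Fcgr2b followed the monocyte markers more closely (0.80) than the B cell markers, whereas the other 5 had correlations of 0.45 to 0.62 with monocyte markers. Correlations with the T cell markers ran from 0.63 (Fcgr2b) to 0.76 (Fcer2a), and that of Cr2 (0.67) was about equal to its B cell value. All of these points share arrays, and the correlations are given as a description.

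**Figure D4:**
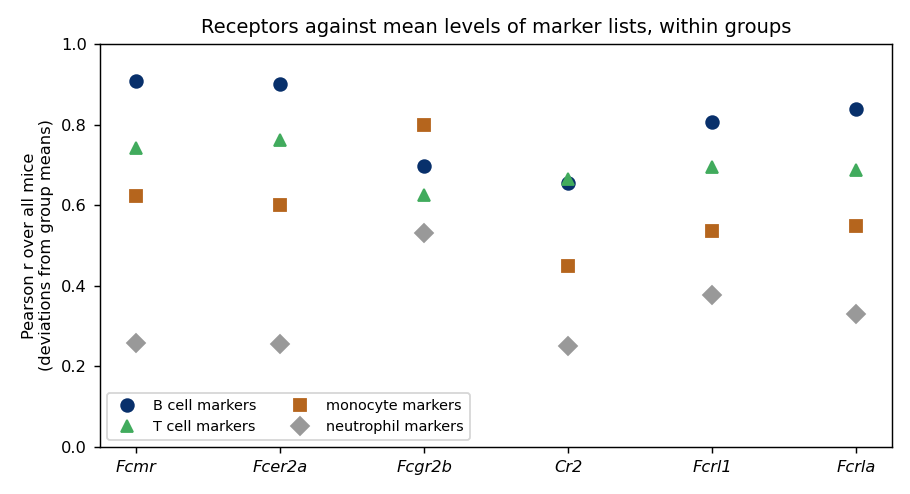
Pearson correlation of each receptor with the mean level of 4 marker lists over all mice, after subtracting group means. For Fcmr, Fcer2a, Fcrl1 and Fcrla the B cell point is the highest, for Fcgr2b the monocyte point (0.80), and for Cr2 the B cell (0.66) and T cell (0.67) points nearly coincide.

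The genes whose mouse-to-mouse pattern was most like each receptor were ranked over 12268 candidates by the same correlation. For Fcer2a they were Ighm (0.89), Bank1 (0.88) and Cd22 (0.88), and for Fcmr they were Ltb (0.88), Ighm (0.88) and H2-Aa (0.85). Fcrla was most like Ltb (0.86), Cd37 (0.83) and Cd79a (0.83). Fcrl1 was most like Bank1 (0.81), Ms4a1 (0.80) and Btla (0.80). Most of these are familiar genes of B cells, among them the scaffold Bank1, the inhibitory receptor Cd22 and the antigen receptor chains Ighm and Cd79a. Fcgr2b was most like Ctsc (0.83), which encodes a lysosomal protease, Igsf6 (0.82) and Lipa (0.81), the lysosomal acid lipase. Cr2 was most like Fchsd2 (0.80), Dock11 (0.77) and Macf1 (0.77).

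Markers of B cells moved with the receptors at 12 months. In the MWCNT trend 5.07% of all probe sets were called lower. Of 14 B cell markers measured, 9 were called lower there and none higher, with a median change of -0.68. Among them, Blnk (an adaptor of the antigen receptor) changed by -0.88 ± 0.21 (adjusted p = 0.0187), Ebf1 by -0.90 ± 0.22 (adjusted p = 0.0194) and Spib by -1.03 ± 0.27 (adjusted p = 0.0262), both transcription factors of B cells. Cd79b, a chain of the antigen receptor, changed by -0.67 ± 0.19 (adjusted p = 0.0410). The mean of the list ran from 5.75 through 6.15 to 6.50 in mice given 80 µg (lowest, median and highest), against 6.29, 6.82 and 7.44 in DM mice, and from 5.97 through 6.52 to 7.23 in crocidolite mice. With that mean as a covariate, no receptor was called in any of the 27 comparisons. The share of all probe sets called in that fit was not counted. The absence of calls is therefore not read as a result about the receptors. In that fit Fcrl1 differed by -0.35 ± 0.15 and Fcmr by -0.22 ± 0.11 at 80 µg against DM (adjusted p = 0.948 and 0.971, unadjusted p = 0.0195 and 0.0364). For Cr2 with crocidolite against 80 µg the estimate was 1.02 ± 0.29 (adjusted p = 0.212, unadjusted p = 0.000746).

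The fall was not limited to B cell genes. Of 11 T cell markers 6 were called lower in the 12-month MWCNT trend, where 5.07% of all probe sets were. Of 9 monocyte markers 1 (Ly6c2) and of 9 natural killer cell markers 1 (Nkg7) were called lower, too few to set apart from that share. None of 10 neutrophil, 7 antibody-secreting cell, 6 platelet and 2 red cell markers was called lower. None of these markers was called higher. The T cell list mean was 3.96, 4.30 and 4.66 at 80 µg, against 4.54, 4.86 and 5.35 in DM mice (lowest, median and highest). The neutrophil list mean was 4.64, 5.02 and 5.33 at 80 µg, against 5.09, 5.43 and 6.29 in DM mice, and the monocyte list mean 4.43, 5.03 and 6.10 against 5.07, 5.55 and 6.03. The part of cell composition in the receptors' changes was not tested. The covariate is RNA of B cell genes from the same arrays, so it cannot separate fewer B cells from less RNA per cell.

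Of 10 genes of the coreceptor complex and its signalling, 2 were called lower in the 12-month MWCNT trend, where 5.07% of all probe sets were. These were Btk (-0.72 ± 0.21, adjusted p = 0.0417), a kinase of the activating pathway, and Ptpn6 (-0.55 ± 0.19, adjusted p = 0.0796), a phosphatase of the inhibitory one. Cd81, the partner of Cr2 that many cell types carry, changed by -0.07 ± 0.15 (adjusted p = 0.830). Inpp5d, which encodes the phosphatase SHIP that acts below Fcgr2b, changed by -0.41 ± 0.22 (adjusted p = 0.291).

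In the 12-month MWCNT trend, where 5.07% of all probe sets were called lower, 1 of 13 other Fc receptor genes was called. This was Fcgrt, the receptor that protects IgG from breakdown, at -0.85 ± 0.25 (adjusted p = 0.0412). The myeloid receptors Fcgr3 (-0.05 ± 0.16) and Fcgr4 (-0.18 ± 0.21) and their shared signalling chain Fcer1g (-0.02 ± 0.13) were not called, with adjusted p of 0.895, 0.669 and 0.942. Of 12 other complement receptors and regulators 2 were called lower. These were Cd55 (-0.83 ± 0.23, adjusted p = 0.0335), which restrains complement at the cell surface, and Cd46 (-0.65 ± 0.22, adjusted p = 0.0811). Cr1l, a regulator next to Cr2 in the genome, changed by -0.43 ± 0.17 (adjusted p = 0.125). The myeloid complement receptor gene Itgam had an estimate of 0.00 ± 0.27 (adjusted p = 0.998).

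The complement component genes measured were not called either way. Of these 4 (C1qa, C1qb, C1qc and C4b) none passed in the 12-month MWCNT trend, and C1qb had the largest estimate, 0.97 ± 0.40 (adjusted p = 0.152). C3 and the antibody genes were not among them, so these genes cannot stand for the receptors' ligands. Of 9 regulators of B cell maturation 2 were called lower, where 5.07% of all probe sets were. These were Klf2 (-0.78 ± 0.24, adjusted p = 0.0536) and Vpreb3 (-0.70 ± 0.21, adjusted p = 0.0558). Notch2, the receptor required for marginal zone B cells, which carry much Cr2, changed by -0.26 ± 0.27 (adjusted p = 0.634). Il4ra and Stat6, through which interleukin 4 raises Fcer2a, changed by -0.61 ± 0.22 and -0.51 ± 0.21 (adjusted p = 0.102 and 0.142).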

How the data were processed

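RNA from whole blood of 139 mice was hybridised to 144 Affymetrix Mouse Gene ST 2.1 arrays. Values were used as deposited, on the log2 scale. The authors obtained them by RMA, and oligo, RMA and limma are named, with no versions, in the notes of the submitters. There are 41345 probe sets. Groups were taken from the labels, in 2 of which MWCNT is spelled MWNCT. In 5 cases 2 arrays of a group carried 1 mouse number and were averaged. The platform's probe table gave 1 symbol to 23521 probe sets, several to 1820 and none to 16004, and dim probe sets were kept.

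All 18 group means were fitted together (lmFit and eBayes of limma 3.58.1, R 4.3.3), and from this fit 27 comparisons and 3 F tests by month were drawn. Benjamini-Hochberg adjustment ran over all 23521 probe sets of a comparison. A receptor was called at an adjusted p under 0.10, the false discovery rate of the study's methods. The fit was tested on simulated data. Each mouse counted once. The members and the 13 gene lists were chosen with earlier results of these data known. Named list genes are the called ones of smallest p (up to 4 per list), with others named for their role. The probe of each gene is the brightest of those annotated to it alone. Upstream sequences come from the RefSeq promoter table (GRCm38.p6). Alternatives covered normalization, filters, ranges of array number, array quality, the B cell marker mean, the dose scale and each mouse left out. No batch is given in the labels, so array numbers were split after 96 instead.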

Additional observations from a re-analysis of the deposited data

Results flagged for a closer look

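Over the 6 receptors in 18 groups, 5 values came from a mouse far from its nearest neighbour, by a test that flags about 1 in 20 groups by chance. Fcmr (6.16, nearest 7.40) and Fcrla (3.35, nearest 5.05) were both lowest in mouse 6 given 40 µg MWCNT at 1 month, whose array ranked 11 in spread among all arrays. Fcer2a was lowest (6.32, nearest 7.20) in mouse 6 given 1 µg at 1 month, whose array had a median correlation of 0.828 with the others. Fcrla was lowest (4.44, nearest 5.70) in mouse 3 given 1 µg at 6 months. Cr2 was highest (6.36, nearest 5.46) in crocidolite mouse 2 at 12 months, and without that mouse Cr2 with crocidolite against 80 µg MWCNT was no longer called, with an estimate of 1.36 ± 0.39. The other 3 mice belong to groups at 1 and 6 months.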

How the results depend on the processing

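In the MWCNT trend at 12 months, 4 receptors were called. Only 2 were called with the array spread as a covariate, with the dose in µg or after quantile normalization was repeated, and 0 were called within arrays numbered 97 and up, with the B cell marker mean as a covariate and in the slope without DM mice. With 80 µg against DM, 3 were called, against 1 within arrays 1 to 96 and 0 within arrays 97 and up, with the spread and with the B cell marker mean. The ranges held 3 and 5 of the 80 µg mice, against 7 and 2 DM mice (1 DM mouse has an array in each), so array range and exposure partly overlap. Leaving out each mouse gave 1 to 5 (1 without DM mouse 3 or 7 or the 80 µg mouse 7, and 5 without DM mouse 8). For crocidolite against 80 µg, 1 receptor was called. The count was 2 without arrays of low correlation, and 0 with only the groups compared, all probe sets tested, within either array range, array weights, the methods' analysis of variance, the B cell marker mean or an adjusted p under 0.05, and 0 to 1 with each mouse left out. The cause was not tested, and the share of all probe sets called was not counted for these settings. The alternatives for changes between months were chosen after seeing the data. For 80 µg at 12 months against 1 month the 4 calls became 0 with the B cell marker mean. For DM at 6 months against 1 month the 3 calls became 0 after the second normalization, 1 without arrays of low correlation and 0 with the B cell marker mean.

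With the B cell marker mean, the sign turned for Fcgr2b in the trend (0.29), at 80 µg against DM (0.35) and at 12 months against 1 month (0.45). It also turned for Fcer2a in the trend (0.19) and at 80 µg (0.0601), for Fcrla with crocidolite against 80 µg (-0.0944) and at 80 µg between months (0.20), and for Cr2 in DM mice at 6 months (0.10). Fcgr2b also turned within arrays 97 and up (0.14 in the trend, 0.0230 at 80 µg), without DM mice (0.0429), and in 80 µg mice between months after the second normalization (0.14) and with the spread (0.0019). Fcmr, Fcrl1, Fcrla and Cr2 stayed lower in sign in the trend and at 80 µg in all settings run. The 2 arrays of 1 mouse number correlated at only -0.05 to 0.39 in their deviations from the group mean, so a shared animal is in doubt for some. No paired analysis was possible because the numbers within groups name different mice.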
